A study of Rattus norvegicus with 6 samples.

Results

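The insulin-like growth factor (IGF) genes described here are the ligands Igf1 and Igf2, the receptors Igf1r and Igf2r, and the binding protein genes Igfbp2, Igfbp3, Igfbp4, Igfbp5, Igfbp6 and Igfbp7. They were chosen by gene symbol in the platform's annotation, and all 10 had a row of their own among 23188 rows tested and 15037 genes with a symbol. RNA of whole hearts from male Sprague-Dawley rats, aged 10 weeks per the surgical protocol, was measured on 6 one-colour Clariom S Rat arrays. The 2 normal arrays are the control. The 2 TAC arrays come from hearts under transverse aortic constriction, a silk tie that narrows the aorta and loads the left ventricle. The 2 TAC-R arrays come from hearts released from that tie, and no genotype or drug is named for any group. The labels do not say how long the tie was in place, how long after release the hearts were taken, whether the normal rats had sham surgery, or whether the 2 arrays of a group are different animals. What the p-values weigh is thus the scatter among 6 arrays, and that scatter could be technical.

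IGF-1 and IGF-2 are small secreted hormones that act through the tyrosine kinase receptor IGF1R, which signals through insulin receptor substrates to PI3-kinase and Akt and favours growth and survival of heart muscle cells. IGF2R has no kinase: it takes up IGF-2 for breakdown and sorts lysosomal enzymes by their mannose-6-phosphate tag. The IGF-binding proteins hold the ligands in blood and matrix and are cut by proteases that set the ligands free. In the heart, fibroblasts and macrophages are known sources of IGF-1, and Igf2 is an imprinted gene best known from fetal tissue.

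Values are the deposited log2 signals, so 1 unit is a 2-fold difference, and levels of different genes are not set against each other because each row has its own probes. A signal is called above background when it passed the 95th percentile of the negative control probes of its own array, which lay between 8.09 and 8.55. By that measure 4 members were above background on all 6 arrays (Igf1, Igf2r, Igfbp5 and Igfbp7), 3 on some arrays (Igf2 on 5, Igf1r on 2 and Igfbp4 on 1), and 3 on 0 arrays (Igfbp2, Igfbp3 and Igfbp6). Of all tested rows, 5243 were above it on all arrays and 16340 on 0 arrays. The row of Igf1 stands for 4 RefSeq transcripts and that of Igf2 for 3, so splice forms and start sites of the ligands are measured together. The distributions of the arrays were alike, with medians from 5.31 to 5.39. Each array correlated with its own partner at 0.991 to 0.993 and with arrays of other groups at up to 0.991. The extraction notes mention fibroblast culture although the remaining labels give whole heart as the source, and of 10 measured heart muscle markers Actc1, Mb, Myl3 and Pln were at the ceiling of the scale on all 6 arrays. Of these 10 markers 0 passed in any comparison. Rows at the ceiling cannot differ, and Tnnt2 and Tnni3 were nearly constant at 19.87 to 19.88. That such rows did not pass says nothing of heart muscle content. Between TAC-R and TAC arrays the calcium channel gene Ryr2 differed by 0.49 ± 0.22 (SE) log2 units (adjusted p = 0.468 by limma). The troponin gene Tnnc1 differed by 0.28 ± 0.23 (adjusted p = 0.719). Between TAC and normal arrays Ryr2 differed by -0.69 ± 0.22 and Tnnc1 by -0.28 ± 0.23 (adjusted p = 0.360 and 0.709). Ryr2 and Tnnc1 were named for the largest differences between TAC-R and TAC. The other markers that varied, Myl2 and Actn2, differed between TAC-R and TAC by -0.05 ± 0.21 and -0.03 ± 0.21 (adjusted p = 0.956 and 0.976 by limma). Between TAC and normal they differed by -0.09 ± 0.21 and -0.07 ± 0.21 (adjusted p = 0.924 and 0.942 by limma).

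Both ligand genes had their lowest signals on the TAC-R arrays and their highest on the TAC arrays. From the TAC to the TAC-R arrays Igf2 fell by 2.82 ± 0.39 log2 units, 7.04-fold, and Igf1 fell by 1.56 ± 0.25, 2.94-fold (difference ± SE of limma's linear model). These were the 2 members that passed limma's test in any of the 3 comparisons, where a call needs a p under 0.05 after Benjamini-Hochberg adjustment across the 23188 rows. No member was called higher in any comparison.

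**Figure D1:**
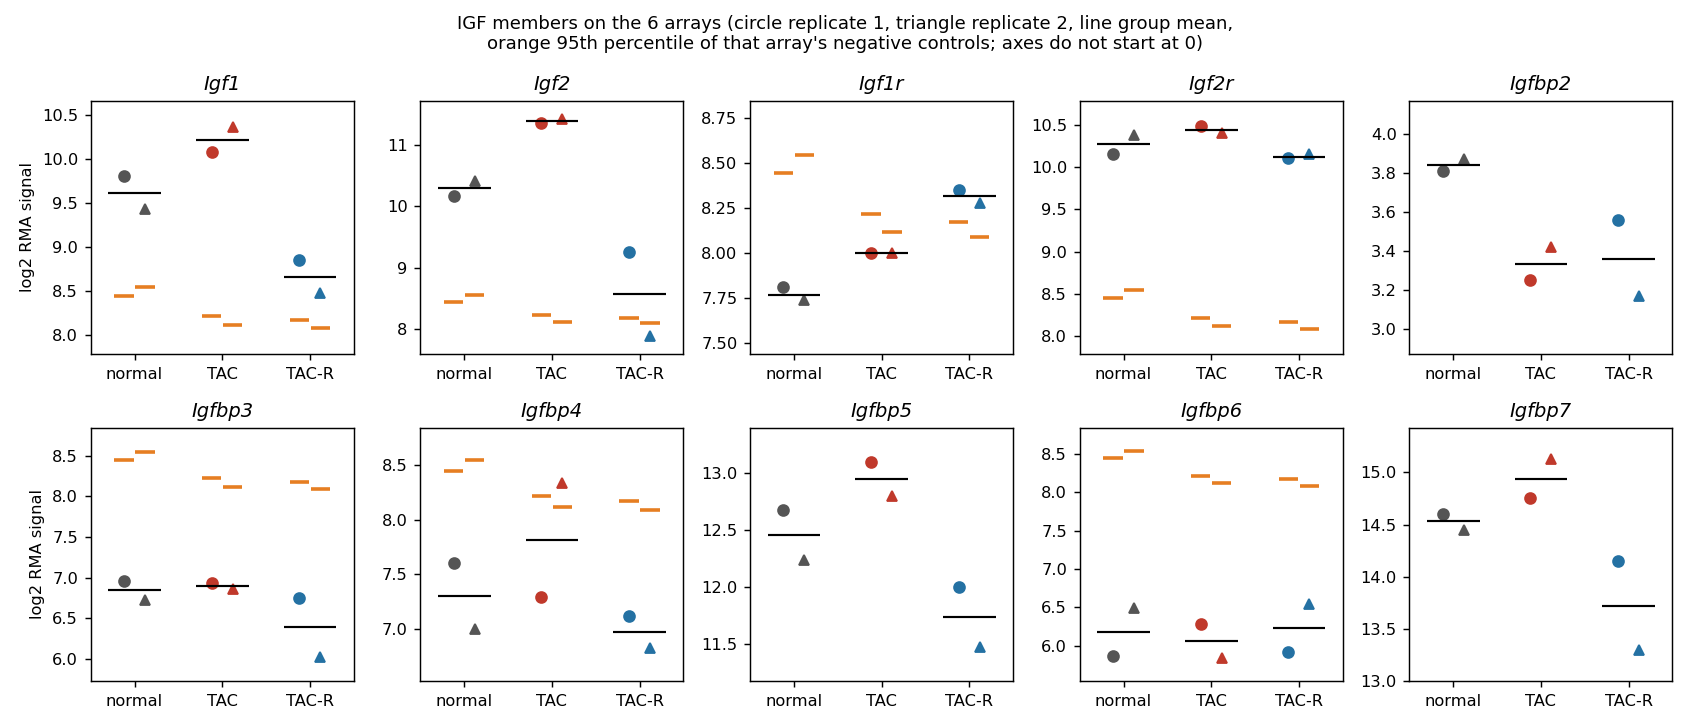
Log2 signal of the 10 IGF members on each of the 6 arrays; circles are replicate 1, triangles replicate 2, black lines the mean of 2 arrays, and orange marks the 95th percentile of that array's negative controls, which lies above the panel for Igfbp2 and below it for Igfbp5 and Igfbp7. Igf1 and Igf2 are highest on both TAC arrays and lowest on both TAC-R arrays, and Igfbp5 and Igfbp7 have the same order of groups, also without overlap. For Igf2r the normal and TAC-R arrays nearly touch, so its order is hardly resolved.

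The bases upstream of the 2 ligand genes and of Igfbp5 and Igfbp7, are shown because these 4 members had the largest differences between TAC-R and TAC arrays. They are the 250 bases before an annotated start in RefSeq, build GRCr8, 5′ to 3′ on the strand of the gene, with matches to the searched motifs in capitals. Igf2 has 2 entries.
Igf1, chr7:24172282-24172531, plus strand: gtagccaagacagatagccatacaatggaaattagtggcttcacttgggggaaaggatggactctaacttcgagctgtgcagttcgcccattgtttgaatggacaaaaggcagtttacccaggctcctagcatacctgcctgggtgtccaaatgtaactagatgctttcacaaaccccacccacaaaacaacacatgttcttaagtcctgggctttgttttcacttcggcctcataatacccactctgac
Igf2, first entry, chr1:207253981-207254230, minus strand: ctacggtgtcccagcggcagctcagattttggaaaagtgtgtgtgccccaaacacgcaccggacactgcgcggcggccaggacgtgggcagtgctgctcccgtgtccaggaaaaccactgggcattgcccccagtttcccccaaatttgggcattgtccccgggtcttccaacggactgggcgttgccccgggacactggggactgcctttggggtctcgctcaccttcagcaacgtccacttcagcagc
Igf2, second entry, chr1:207250476-207250725, minus strand: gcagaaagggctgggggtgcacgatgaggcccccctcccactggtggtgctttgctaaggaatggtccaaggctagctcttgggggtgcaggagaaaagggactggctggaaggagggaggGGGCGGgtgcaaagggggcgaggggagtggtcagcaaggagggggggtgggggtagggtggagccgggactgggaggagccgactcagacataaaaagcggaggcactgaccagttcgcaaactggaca
Igfbp5, chr9:81914188-81914437, minus strand: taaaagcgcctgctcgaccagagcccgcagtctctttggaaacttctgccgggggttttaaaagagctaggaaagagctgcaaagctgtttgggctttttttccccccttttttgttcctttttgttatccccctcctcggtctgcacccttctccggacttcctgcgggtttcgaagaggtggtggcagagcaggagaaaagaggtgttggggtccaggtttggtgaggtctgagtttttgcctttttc
Igfbp7, chr14:31091486-31091735, plus strand: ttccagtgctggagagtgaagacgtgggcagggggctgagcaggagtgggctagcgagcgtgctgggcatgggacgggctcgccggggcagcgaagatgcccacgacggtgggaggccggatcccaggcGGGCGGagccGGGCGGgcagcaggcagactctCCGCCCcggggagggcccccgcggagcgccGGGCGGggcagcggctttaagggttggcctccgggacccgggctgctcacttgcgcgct

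The motifs searched on both strands were the TATA box as TATAAA, the CCAAT box as CCAAT, the GC box bound by Sp1 as GGGCGG, and the core of the FoxO site as GTAAACA. Upstream sequences were found for all 10 members, 11 in all. A GC box was in 5 of these 11 (Igf1r, Igf2r, Igfbp2, Igfbp7 and the second entry of Igf2) and in 30.5% of all 33469 upstream sequences of this length. Igfbp7 held 4 of them. The TATA box was in 1 of 11, that of Igfbp4, against 12.9% of all, and the FoxO core in 1 of 11, that of Igfbp6, against 3.21%. The CCAAT box was in 0 of 11 against 34.0%. Igf1, Igfbp3, Igfbp5 and the first entry of Igf2 held none of these letters, and 0 matches overlapped. The array does not tell which start was used.

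Igf2 encodes the ligand that binds both receptors. Its log2 signal was 10.16 and 10.41 on the normal arrays, 11.36 and 11.42 on the TAC arrays, and 9.26 and 7.89 on the TAC-R arrays. The 3 groups did not overlap, and the TAC arrays were close together while the TAC-R arrays were far apart, with group means of 10.29 ± 0.18, 11.39 ± 0.04 and 8.57 ± 0.97 (SD, n = 2 each). The fall from TAC to TAC-R had a 95% interval from -3.70 to -1.93 and an adjusted p of 0.0269 by limma, and it was the third largest fall of all tested rows. TAC-R replicate 2 was below background for Igf2, so the 7.04-fold value includes 1 signal whose true level is not measured. Without that array the difference was -2.13 and no longer passed (adjusted p = 0.0651), and with TAC-R replicate 2 kept and replicate 1 left out it was -3.50 (adjusted p = 0.0207). With every dim signal raised to 1 common floor, a setting chosen after seeing the data, it was -2.63 (adjusted p = 0.0376).

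Igf1 encodes the ligand known as the main IGF of the adult. Its log2 signal was 9.81 and 9.43 on the normal arrays, 10.08 and 10.36 on the TAC arrays, and 8.85 and 8.48 on the TAC-R arrays, all above background. The groups did not overlap: both TAC-R arrays were below all others and both TAC arrays above. The means were 9.62 ± 0.27, 10.22 ± 0.19 and 8.66 ± 0.26 (SD, n = 2 each). The fall from TAC to TAC-R had a 95% interval from -2.12 to -1.0 and an adjusted p of 0.0438 by limma.

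Neither call held in all the fits that left out 1 array. Igf1 passed in 0 of the 6 fits that left out 1 array, with differences from -1.74 to -1.37 and adjusted p from 0.094 to 0.279 (0.094 without either normal array, 0.194 and 0.279 without TAC replicates 1 and 2, 0.115 and 0.258 without TAC-R replicates 1 and 2). Igf2 passed in 1 of the 6, without TAC-R replicate 1, and missed in the others (adjusted p = 0.084 without either normal array, 0.185 and 0.209 without TAC replicates 1 and 2, 0.0651 without TAC-R replicate 2). Leaving out an array removes degrees of freedom, and 3 remain with all arrays. A fit without a normal array had the same difference between TAC-R and TAC, so only the estimated spread and its degrees of freedom changed. Missing the threshold there thus does not show that a call rests on 1 array. The smallest p of an exact permutation test, two-sided, is 0.33 for pairs of arrays, so each of these p-values leans on the spread that limma pools over rows.

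Against the normal arrays the ligands did not pass in either direction. On the TAC arrays Igf2 differed by 1.10 ± 0.39 log2 units (95% interval 0.22 to 1.99, adjusted p = 0.403 by limma) and Igf1 by 0.60 ± 0.25 (0.04 to 1.16, adjusted p = 0.461). On the TAC-R arrays Igf2 differed from normal by -1.71 ± 0.39 (-2.60 to -0.83, adjusted p = 0.225) and Igf1 by -0.96 ± 0.25 (-1.52 to -0.40, adjusted p = 0.276). In all 4 of these contrasts the arrays of the groups did not overlap, and the unadjusted p of limma lay between 0.00187 and 0.0388. Of all rows, 43.3% did not overlap between TAC and normal and 40.9% between TAC-R and normal. An unadjusted p under 0.05 was found for 10.3% and 10.7% of all rows in these comparisons. Each group of arrays serves in 2 of the 3 comparisons, so these are not independent of each other.

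**Figure D2:**
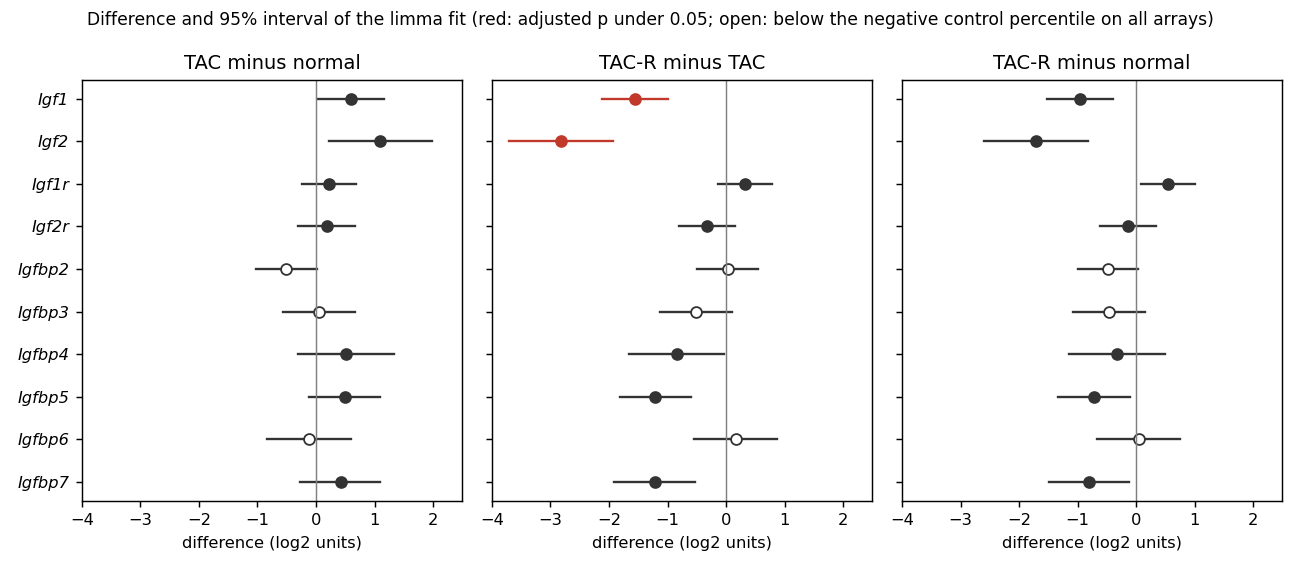
Difference between groups of each member in log2 units (points) with the 95% interval of limma's fit (lines, unadjusted), for TAC minus normal, TAC-R minus TAC and TAC-R minus normal; red marks an adjusted p under 0.05 and open points mark members below background on all arrays. Igf1 and Igf2 in TAC-R minus TAC are the 2 red points, and the intervals of Igfbp5 and Igfbp7 in the same panel also lie below 0.

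Neither receptor gene passed in any comparison. Igf1r, the signalling receptor, had signals of 7.81 and 7.74 on the normal arrays, 8.00 on both TAC arrays, and 8.35 and 8.28 on the TAC-R arrays. The groups did not overlap and ran upward in that order, opposite to the ligands on the TAC-R arrays, but only the TAC-R arrays were above background. The difference between TAC-R and TAC was 0.32 ± 0.20 log2 units (95% interval -0.14 to 0.78, adjusted p = 0.632 by limma). The TAC-R mean lay 1.11-fold above the background level of the TAC arrays, a value that takes no account of the scatter between arrays. Against normal arrays TAC-R differed by 0.54 ± 0.20 (adjusted p = 0.405) and TAC by 0.22 ± 0.20 (adjusted p = 0.743). The TAC-R mean of 8.32 lay under the mean background level of the normal arrays, 8.50, so the size of the first of these is not measured.

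Igf2r, which clears IGF-2, was above background on every array at 10.15 and 10.38 (normal), 10.48 and 10.40 (TAC) and 10.10 and 10.15 (TAC-R). All 6 signals lay within a narrow range. The groups had the same order as for the ligands, but the gap was only 0.02 log2 units between TAC and normal arrays. Between TAC-R and normal arrays the gap was 0.0 when rounded, so that order is hardly resolved. The TAC-R difference from TAC was -0.32 ± 0.21 (95% interval -0.80 to 0.16, adjusted p = 0.649 by limma). Igf2r differed by 0.18 ± 0.21 between TAC and normal (-0.30 to 0.66, adjusted p = 0.812) and by -0.14 ± 0.21 between TAC-R and normal (-0.62 to 0.34, adjusted p = 0.854). The interval between TAC-R and TAC thus reached down to -0.80, while that of Igf2 reached up to -1.93.

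Of the binding protein genes, Igfbp5 and Igfbp7 were bright and had the largest differences after the ligands. Igfbp5, whose protein binds IGFs and also matrix, had signals of 12.68 and 12.24 on the normal arrays, 13.10 and 12.80 on the TAC arrays, and 12.00 and 11.48 on the TAC-R arrays. The TAC-R arrays lay below and the TAC arrays above all others. The TAC-R difference from TAC was -1.21 ± 0.27 log2 units (95% interval -1.82 to -0.60) and did not pass, with an adjusted p of 0.138 by limma, and that between TAC-R and normal was -0.72 ± 0.27 (adjusted p = 0.404). TAC differed from normal by 0.49 ± 0.27 (adjusted p = 0.558).

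Igfbp7, which encodes a secreted relative of the family with weak IGF binding that is made by vessel cells, had signals of 14.60 and 14.45 (normal), 14.75 and 15.13 (TAC), and 14.15 and 13.30 (TAC-R). The groups again did not overlap, and the TAC-R arrays differed from each other more than the arrays of the other groups did. The TAC-R difference from TAC was -1.22 ± 0.30 (95% interval -1.91 to -0.53, adjusted p = 0.177 by limma). TAC-R differed from normal by -0.80 ± 0.30 and TAC from normal by 0.42 ± 0.30 (adjusted p = 0.409 and 0.666). Neither gene passed, and with an intensity trend in limma's moderation both did for TAC-R against TAC, at adjusted p = 0.0114 for Igfbp5 and 0.0155 for Igfbp7.

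The remaining binding protein genes were mostly in the background, and how far they differed cannot be read from such signals. Igfbp4, whose protein is cut by the protease pappalysin-1, had signals of 7.60 and 7.00 (normal), 7.29 and 8.34 (TAC), and 7.12 and 6.82 (TAC-R). Only TAC replicate 2 was above background for Igfbp4, and the TAC-R difference of -0.84 ± 0.36 had an adjusted p of 0.442 by limma. Igfbp3, the main carrier of IGFs in plasma, ranged from 6.03 to 6.96, with its lowest signal on TAC-R replicate 2 and adjusted p from 0.552 to 0.970 over the 3 comparisons. Igfbp6, which prefers IGF-2, ranged from 5.84 to 6.54 with overlapping groups, and Igfbp2, another soluble carrier, from 3.17 to 3.87. Both normal arrays were the highest for Igfbp2, but at signals below the negative control median of 4.39 to 4.63. The lowest adjusted p was 0.891 for Igfbp6 and 0.487 for Igfbp2.

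Counted over the 10 members, limma called 0 higher and 0 lower for TAC against normal, where it called 0.254% of all rows (0.190% as higher and 0.0647% as lower) and 2 members had an unadjusted p under 0.05 (10.3% of all rows). It called 2 lower and 0 higher for TAC-R against TAC, where it called 0.431% of all rows (0.224% as higher and 0.207% as lower), and 5 members had an unadjusted p under 0.05 against 11.0% of all rows. It called 0 for TAC-R against normal, where it called 0.0906% of all rows (0.0604% as higher and 0.0302% as lower), and 5 members had an unadjusted p under 0.05 against 10.7%. The arrays of the 2 groups did not overlap for 7 of 10 members between TAC and normal (43.3% of all rows), 8 of 10 between TAC-R and TAC (40.5%) and 7 of 10 between TAC-R and normal (40.9%). The median difference of the members was 0.32, -0.68 and -0.47 log2 units in these comparisons, against 0.00165, 0.00452 and 0.00398 over all rows. Of all rows tested, 16340 of 23188 were above background on 0 arrays, against 3 of the 10 members. The shares and medians over all rows thus come mostly from dim rows and are not matched to the members in brightness.

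The rest of the pathway, given by lists of genes chosen with earlier results of these data known, had no gene that passed in any comparison. Of 5 genes of other binding and ternary complex proteins, 0 passed. Igfbp1, Igfals and Igfbpl1 were in the background on all arrays, and Htra3, a secreted protease with an IGF-binding-like domain, differed by -1.03 ± 0.26 between TAC-R and TAC (adjusted p = 0.184 by limma). Htra1, the related protease, differed by -0.45 ± 0.27 (adjusted p = 0.609). Of 8 proteases that cut binding proteins and their inhibitors, 5 had a named row and 0 passed. Adamts1, a matrix protease, had signals of 9.24 and 9.28 on the normal arrays and 8.13 and 7.74 on the TAC arrays, which are in the background. Its TAC difference from normal was -1.32 ± 0.23 (adjusted p = 0.079), and its normal mean lay 2.13-fold above the background level of the TAC arrays. Prss23, a serine protease, differed by 0.63 ± 0.23 between TAC-R and TAC (adjusted p = 0.353).

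Downstream of the receptor, 0 of 9 measured substrates and adaptors passed, with a median difference of -0.01 log2 units between TAC-R and TAC. Irs1, a docking protein of the receptor, had a difference of -0.56 ± 0.22 (adjusted p = 0.399 by limma). Shc1, an adaptor towards Ras, differed by -0.43 ± 0.21 (95% interval -0.90 to 0.04, adjusted p = 0.501). It was in the background on the TAC-R arrays, and its TAC mean lay 1.23-fold above that background level. Of 24 measured genes of the PI3-kinase, Akt and mTOR cascade 0 passed, with 17 above and 7 below 0 and a median of 0.10 against 0.00452 over all rows. Pik3r1, the regulatory subunit of PI3-kinase, differed by 0.84 ± 0.21 and Rps6kb1, which encodes an S6 kinase, by 0.44 ± 0.21 (adjusted p = 0.182 and 0.481). Of 12 genes, FoxO factors, which Akt is known to restrain as proteins, and their textbook targets, 0 passed and 8 lay above 0 (median 0.35). Among them Txnip, an inhibitor of glucose uptake, differed by -1.04 ± 0.22 between TAC and normal and by 0.83 ± 0.22 between TAC-R and TAC (adjusted p = 0.158 and 0.200), and Bnip3, a mitophagy receptor gene, by 0.68 ± 0.28 in the latter (adjusted p = 0.424).

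The growth hormone axis, which drives Igf1 in liver, likewise had 0 of 10 genes passing and a median difference of -0.01 between TAC-R and TAC. Cish, a feedback inhibitor of cytokine signalling, differed by 0.79 ± 0.28 and Stat5a, the factor downstream of the receptor, by -0.45 ± 0.26 (adjusted p = 0.346 and 0.594 by limma). Of 5 insulin genes and related receptors 0 passed, among them the insulin receptor gene Insr at 0.07 ± 0.21 and M6pr, the small mannose-6-phosphate receptor, at -0.16 ± 0.23 (adjusted p = 0.937 and 0.860). Of 9 measured genes for Igf2 mRNA-binding proteins and imprinted growth genes 0 passed, and 8 were in the background on all arrays, including Dlk1, Plagl1, Mest and Cdkn1c. Gnas, the exception, differed by -0.13 ± 0.22 (adjusted p = 0.876).

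The mean level of the fibroblast markers had the same order of groups as the ligands, highest on the TAC arrays and lowest on the TAC-R arrays. The mean log2 signal of 14 measured fibroblast markers was 9.49 and 9.41 on the normal arrays, 10.05 and 10.09 on the TAC arrays, and 9.28 and 8.91 on the TAC-R arrays. Between TAC-R and TAC all 14 had a difference below 0, with a median of -0.83, and 2 fell. The collagen gene Col3a1 fell by 1.72 ± 0.24 and the collagen gene Col1a2 fell by 1.66 ± 0.27 (adjusted p = 0.0269 and 0.0469 by limma). The differences of Pdgfra, Dcn and Lum were -0.78, -0.69 and -1.24 and did not pass, and Tcf21, Pcolce, Postn and Cthrc1 were in the background on all arrays. The part of these markers in the differences of Igf1 and Igf2 was not tested, and in bulk tissue fewer cells of a type and less RNA per cell cannot be told apart.

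Other marker lists differed as well. The 11 smooth muscle and pericyte markers had means of 9.48 and 9.29 on the TAC arrays and 8.93 and 8.58 on the TAC-R arrays, against 8.87 and 8.86 on the normal arrays. Of these 0 passed between TAC-R and TAC and 10 of 11 were below 0, and the smooth muscle gene Cnn1 was called higher on TAC than on normal arrays (adjusted p = 0.0319 by limma) at signals in the background. The 9 measured endothelial markers had means of 10.45 and 10.60, 10.59 and 10.46, and 10.25 and 9.89 on the normal, TAC and TAC-R arrays. Of them 0 passed between TAC-R and TAC and 7 were below 0. Among them were the endothelial cadherin gene Cdh5 at -0.82 ± 0.29 and the von Willebrand factor gene Vwf at -0.71 ± 0.30 (adjusted p = 0.347 and 0.443). Vwf was in the background on the TAC-R arrays, and its TAC mean lay 1.24-fold above that background level. The 12 macrophage markers had means of 6.0 and 5.83 on the normal arrays, 6.42 and 6.46 on the TAC arrays, and 6.17 and 6.11 on the TAC-R arrays. Of them 10 were in the background on all arrays, Cd68 and Tyrobp included, and 0 passed. Their differences lay above 0 for 12 of 12 between TAC and normal (median 0.41) and below 0 for 9 of 12 between TAC-R and TAC (median -0.25). The part of these vessel and macrophage markers in the ligand values was not tested. C1qa, a complement subunit gene, and Mrc1, the mannose receptor gene, were above background and differed by -0.32 ± 0.23 and -0.15 ± 0.21 between TAC-R and TAC (adjusted p = 0.687 and 0.846).

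Atrial and red cell markers also separated the groups. The 6 atrial heart muscle markers had means of 9.02 and 7.40 on the TAC-R arrays against 5.77 and 5.78 on the TAC arrays and 6.27 and 6.52 on the normal arrays. All 6 were above 0 between TAC-R and TAC, and the atrial light chain gene Myl7 rose from 7.48 and 7.51, in the background, to 14.30 and 12.54 (adjusted p = 0.00315 by limma). Its TAC-R mean lay 38.0-fold above the background level of the TAC arrays. Of the atrial markers Sln and Bmp10 were in the background on all arrays. Nppa, above background on all 6 arrays, differed by 3.71 ± 0.62 between TAC-R and TAC and did not pass (adjusted p = 0.0527 by limma). The sizes were uneven, from 3.39 ± 0.73 for Myl4 to 0.10 ± 0.26 for Stard10 and 0.09 ± 0.22 for Bmp10. The 8 measured erythroid markers had means of 12.50 and 12.35 on the TAC arrays, 10.33 and 10.58 on the normal arrays and 11.17 and 11.29 on the TAC-R arrays, with 5 called higher on TAC against normal (Alas2, Slc4a1, Hbb, Hbb-b1 and Hbb-bs) and 3 called lower on TAC-R against TAC (Slc4a1, Hbb-b1 and Hbb-bs). Alas2 alone of the 8 was called higher on TAC-R against normal (adjusted p = 0.0493). Epicardial, adipocyte and hepatocyte markers had 0 of 5, 0 of 5 and 0 of 6 genes passing, and most of them were in the background, with the fat-binding protein gene Fabp4 and the carrier gene Ttr above it. The part of the atrial and red cell markers in the ligand values was not tested.

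**Figure D3:**
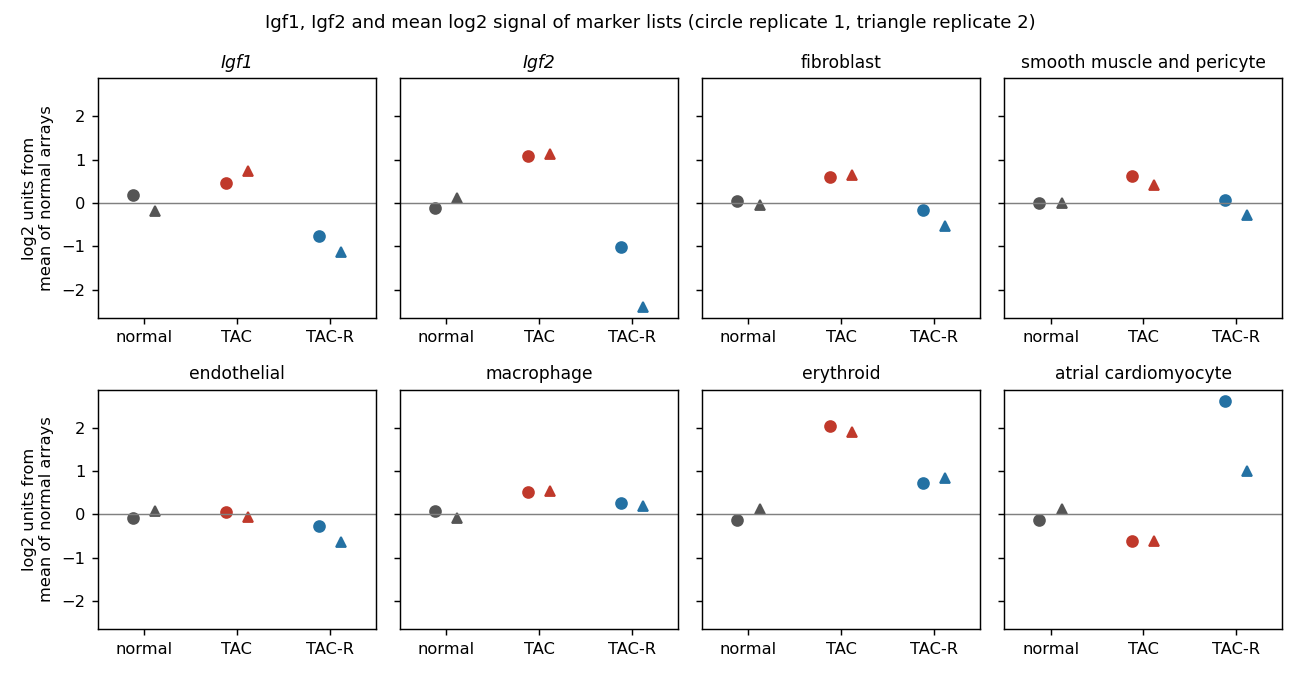
Log2 units from the mean of the 2 normal arrays for Igf1, Igf2 and the mean signal of 6 marker lists; circles are replicate 1 and triangles replicate 2. Fibroblast and smooth muscle markers lie above 0 on both TAC arrays and below the normal arrays on TAC-R replicate 2, as do the ligands. On TAC-R replicate 1 the ligands and fibroblast markers are below the normal arrays too, while the smooth muscle markers are slightly above them (8.93 against 8.87 and 8.86). The atrial markers are highest on TAC-R replicate 1.

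The genes whose signals were most like those of the ligands over the 6 arrays were named by Pearson's r among 701 other genes above background on both arrays of at least 1 group and with a range of at least 1 log2 unit. For Igf1 they were Soat1 (r = 0.991), S100a11 (0.989), Fstl1 (0.989), Acaa2 (0.987) and Steap4 (0.985). Of these, Fstl1, a secreted glycoprotein gene of mesenchymal cells, and Steap4, a metal reductase gene, passed between TAC-R and TAC, with differences of -1.68 and -1.31 (adjusted p = 0.0286 and 0.0446 by limma). For Igf2 they were Fn1 (r = 0.990), Tgfbi (0.989), Arnt (0.985), Ddr2 (0.985) and Tagln2 (0.980), of which the fibronectin gene Fn1 passed at -1.78 (adjusted p = 0.0496). With 6 arrays in 3 groups such values are not rare: 25 of the 701 genes had r over 0.95 with Igf1 and 41 with Igf2, so the order among them is only a description. The genes were picked on the same arrays for their likeness to ligands called lower there. Their falls and p-values are thus no separate evidence.

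**Figure D4:**
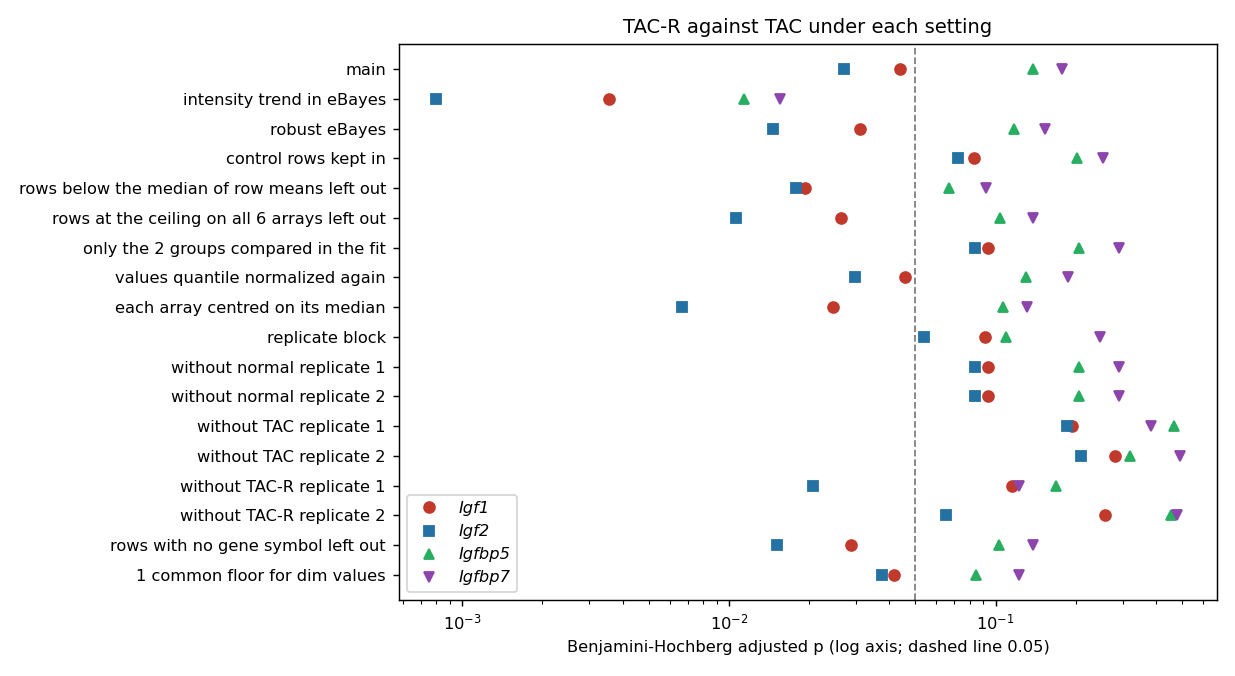
Benjamini-Hochberg adjusted p of Igf1, Igf2, Igfbp5 and Igfbp7 for TAC-R against TAC (log axis) under each setting, top row as reported, with the threshold of 0.05 dashed; the setting with a separate floor per array is not drawn. Igf1 and Igf2 lie left of the line in 8 of 11 settings other than the reported one and those that leave out 1 array, and Igfbp5 and Igfbp7 in 1. The common floor and the setting without rows lacking a gene symbol, both added after seeing the data, are among the 8.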

How the data were processed

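The deposited values are log2 signals, 1 column per array, which the authors made, per the labels, in Expression Console with RMA (robust multi-array averaging) over core exons. Its version is not given in the sources used. RMA makes array distributions alike, so a shift of all transcripts cannot be seen, and the scale has a ceiling. The log2 values were used as deposited. Of 24834 rows, 1646 control rows were left out. One gene symbol was known for 15049 of the 23188 rows tested and none for 8139; where a gene had several rows, that with the highest mean was used. Differences were tested with limma 3.58.1 in R 4.3.3, 1 mean per group over all 6 arrays, no covariate, 3 residual and 5.71 prior degrees of freedom, called at a Benjamini-Hochberg adjusted p under 0.05. The script was tested on simulated data. No batch, scan date or detection call is given, and the number of arrays limits the precision. Members, lists and tests were chosen with earlier results of these data known. Every member is named; of the other lists, every called gene, or else the 2 with the largest difference between TAC-R and TAC above background on at least 1 array. Of lists without a call, Gnas was the 1 imprinted gene above background. Beyond that rule, genes such as Igfbp1, Dlk1 and Pdgfra are named as list members in the background or as markers. Alternatives were other moderation, rows, scaling, floors, the replicate block and leaving out each array.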

Additional observations from a re-analysis of the deposited data

How the results depend on the processing

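Between TAC-R and TAC, where Igf1 and Igf2 were called, 0 of 6 fits that left out 1 array called both, and the number of members called ranged from 0 to 1. A trend of the variance with signal intensity raised it to 4 by adding Igfbp5 and Igfbp7, and it was 0 when control rows stayed in (adjusted p = 0.083 for Igf1 and 0.0724 for Igf2) or with only both compared groups in the fit (0.094 and 0.084). The latter leaves fewer degrees of freedom. Deviations of same-numbered arrays from their group means correlated at 0.0117, -0.00932 and -0.0127 over the 23188 rows. Of these rows 16340 were above background on 0 arrays, so the values cannot show whether the replicate numbers pair the arrays. With the replicate number as a block 0 members were called (0.0916 and 0.0538). Igf1 and Igf2 each kept their call in 8 of 11 settings, those that leave out 1 array or set a floor per array not counted. Among these 8 are the common floor and the setting that left out rows with no gene symbol. Both of those were added after seeing the data. Between TAC-R and normal the trend setting called 1 member, Igf2 (adjusted p = 0.0379). Raising each dim signal to the percentile of its own array called 9 members between TAC and normal, 4 between TAC-R and TAC and 8 between TAC-R and normal, with 18963, 1310 and 19191 rows in all; there the differences between the arrays' percentiles enter every dim row, so these counts say nothing of the members. With 1 common floor of 8.27 for all arrays, chosen after seeing the data, 0, 2 and 0 members were called.

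Signs turned only for members that were not called. Under the floor per array the difference between TAC and normal became -0.33 for Igf1r and Igfbp3 and -0.22 for Igfbp4, that between TAC-R and TAC -0.039 for Igfbp2 and Igfbp6, and that between TAC-R and normal -0.18 for Igf1r and -0.37 for Igfbp6. Normalizing by quantiles again gave -0.049 for Igfbp3 between TAC and normal. Leaving out 1 array gave ranges between TAC and normal of -0.066 to 0.16 for Igfbp3, -0.0072 to 1.04 for Igfbp4 and -0.43 to 0.19 for Igfbp6. It gave -0.17 to 0.23 for Igfbp2 and -0.14 to 0.48 for Igfbp6 between TAC-R and TAC, and -0.26 to 0.36 for Igfbp6 between TAC-R and normal.

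The numbers of rows called also moved, in the order TAC against normal, TAC-R against TAC and TAC-R against normal. They were 59, 100 and 21 as reported, 170, 344 and 156 with the intensity trend, 35, 37 and 12 with only both groups in the fit, 39, 44 and 10 when control rows stayed in, and 36, 47 and 11 with the replicate block. Without the dimmer rows they were 87, 187 and 68, without the ceiling rows 78, 143 and 37, with each array centred on its median 84, 144 and 54, and with the common floor 30, 125 and 7. Leaving out 1 array gave 0 to 35, 4 to 37 and 0 to 12. Each member had 1 row, so another row of the same gene could not be tried.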

Other observations

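Some IGF genes are neighbours in the RefSeq annotation. Igfbp2 and Igfbp5 are adjacent protein-coding genes on chromosome 9, and Igfbp3 and Igfbp1 on chromosome 14. Within the first pair Igfbp5 was above background on all 6 arrays, at -1.21 ± 0.27 log2 units between TAC-R and TAC arrays, and Igfbp2 was below it on all 6, at 0.03 ± 0.23, and neither passed (adjusted p = 0.138 and 0.978 by limma). Within the second pair both genes were below background on all 6 arrays, with signals of Igfbp1 from 3.21 to 3.87. The insulin gene Ins2, which lies near Igf2 on chromosome 1, was also below background on all 6 arrays, at 3.96 to 4.62, and differed by -0.27 between TAC-R and TAC (adjusted p = 0.764), where Igf2 differed by -2.82.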
